A study of Mus musculus with 18 samples.

Results

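Acid-sensing ion channels (ASICs) and P2X receptors are the ion channels through which sensory neurons detect protons and extracellular ATP. Their expression was followed in 9 genes, taken by symbol as sensors of bone acid and ATP: Asic1, Asic2 and Asic3 among the ASICs, and P2rx2, P2rx3, P2rx4, P2rx5, P2rx6 and P2rx7 among the P2X receptors. All 9 were found by gene identifier among the 48529 genes quantified, and all 9 passed the filter on low counts that left 15774 genes for testing. The samples were whole lumbar dorsal root ganglia (DRG, levels L2 to L4) of 18 male C57BL/KaLwRijHsd mice aged 5-7 weeks, taken from the operated side 24 days after surgery. Ganglia of the MM group came from 9 mice given 5TGM1-GFP cells, a mouse myeloma line that carries a green fluorescent protein, into the femur, and ganglia of the SHAM group came from 9 mice given vehicle by the same route. Both groups share the surgery, the strain, which is a usual host for 5TGM1 cells, and the sex. Whole ganglia hold neurons, satellite glia, Schwann cells, vessels and immune cells together, and the labels do not say how the 3 levels of a mouse were combined.

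Each channel is built of subunits encoded by different genes. ASICs open when the extracellular medium turns acidic, as it does under bone-resorbing osteoclasts, and pass mainly sodium; ASIC3 is known from muscle and bone afferents. P2X receptors open when ATP binds. P2X3, alone or together with P2X2, is the ATP receptor of nociceptors, many of which are of the non-peptidergic class, while P2X4 and P2X7 are best known from macrophages, microglia and glial cells, where P2X7 drives release of interleukin-1. On the GRCm38 build, P2rx7 (chr5:122643911-122691432) and P2rx4 (chr5:122707544-122729738) lie near each other on the + strand of chromosome 5, which also holds Asic3 and P2rx2. Asic2 and P2rx5 lie on chromosome 11, P2rx3 on chromosome 2, Asic1 on chromosome 15 and P2rx6 on chromosome 16.

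The libraries held between 19014161 and 21538262 estimated reads in genes. The pan-neuronal markers summed to between 9158 and 20110 CPM (counts divided by scaled library sizes) in MM libraries and to between 14550 and 19390 CPM in SHAM libraries, and all 13 were measured. Libraries MM5, MM8 and MM9 stood apart on the first principal component, which held 40.9% of the variance, and SHAM8 lay at its other end. In the MM group the summed markers of macrophages reached 575.2 CPM, against a highest value of 141.5 CPM in SHAM, and those of B, plasma and myeloma cells reached 8461 CPM, against 141.8 CPM in SHAM. Red blood cell genes went the other way: all 6 tested fell, against 0.241% of all genes tested, with a median log2 fold change of -2.78. Their summed levels were 51.5 to 256.8 CPM in MM and 237.1 to 2998 CPM in SHAM. Without MM5, MM8 and MM9, 3 of 7 fell, and 7 genes of all those tested did. The summed skeletal muscle markers ran to 2281 CPM in MM and to 21890 CPM in SHAM8. Values without MM5, MM8 and MM9 are therefore given beside those over all libraries.

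None of the 9 genes passed the test between MM and SHAM ganglia (0 of 9, edgeR quasi-likelihood test, Benjamini-Hochberg adjusted over all genes tested). In the same fit 2.99% of all genes tested passed, 2.75% higher and 0.241% lower in MM. DESeq2 also called 0 of the 9, against 6.98% of the genes it tested, and limma-voom called 0 of all genes. At an unadjusted p under 0.05 there was 1 of 9, Asic2, against 22.5% of all genes. The fitted log2 fold change was negative for 7 genes and positive for 2, P2rx4 and P2rx7, with a median of -0.12 over the 9 and of -0.004 over all genes tested. In bulk ganglia, fewer cells of a type and less RNA per cell cannot be told apart.

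**Figure D1:**
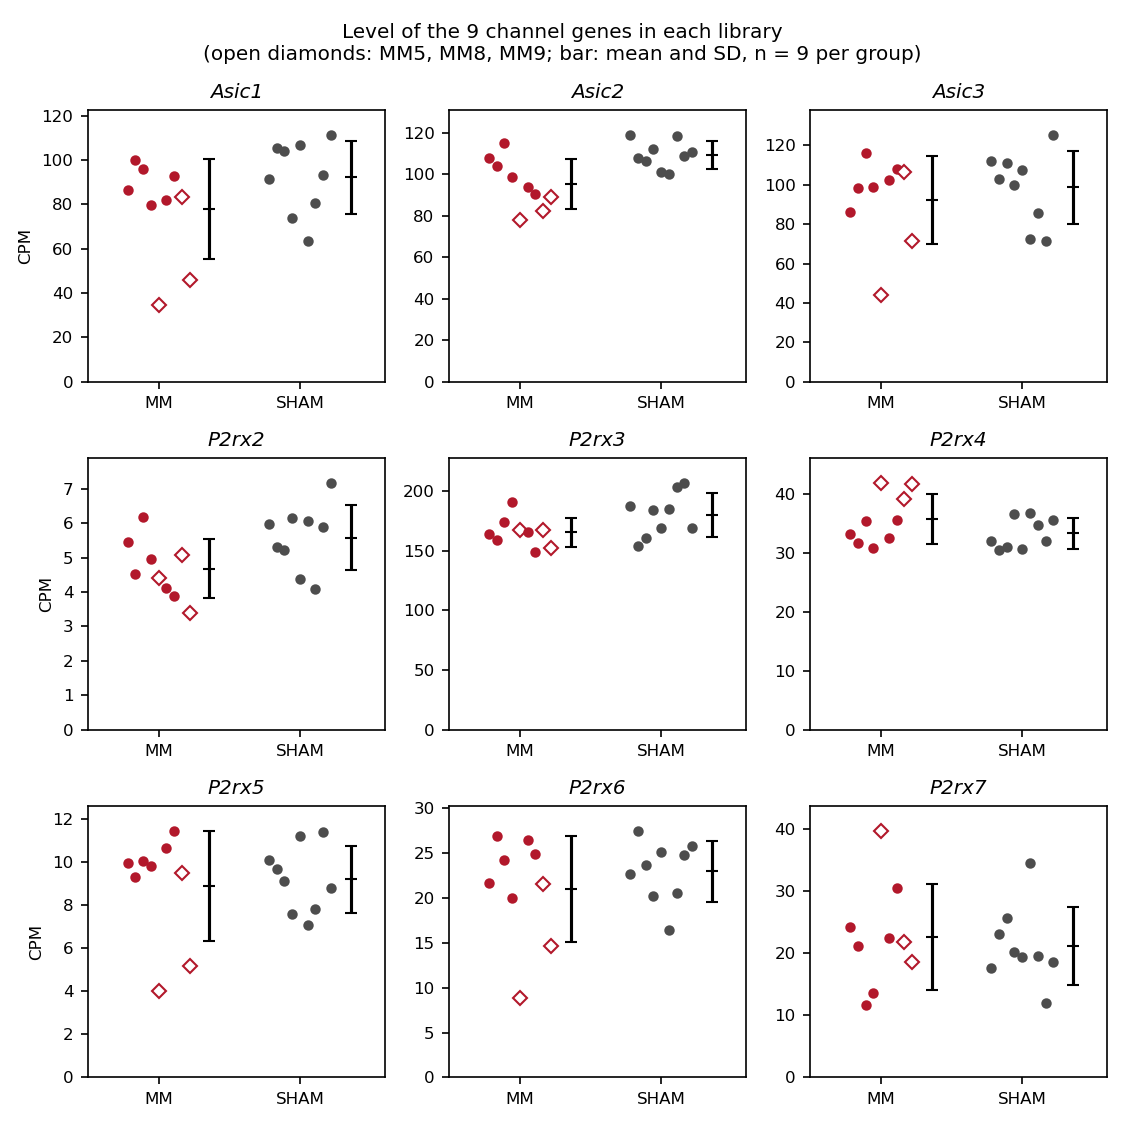
Level of each channel gene in CPM (vertical axes start at 0) in 9 MM and 9 SHAM libraries, 1 point per library, with the mean and SD drawn beside each group. Open diamonds mark MM5, MM8 and MM9. MM5 and MM9 lie below all other MM libraries for Asic1 and Asic3, while MM5, MM8 and MM9 are the highest for P2rx4.

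The acid sensors were among the most abundant of the 9. Asic1, whose subunit forms channels of high proton sensitivity, had 34.7, 83.2 and 99.97 CPM in MM libraries (lowest, median, highest), against 63.5, 93.4 and 111 CPM in SHAM libraries. The 2 lowest values, 34.7 CPM in MM5 and 45.7 CPM in MM9, lay below every SHAM library, while the other 7 MM libraries lay inside the SHAM range. Asic1 averaged 77.8 ± 22.5 CPM over MM and 92.2 ± 16.5 CPM over SHAM libraries (mean ± SD with n = 9 in each group, as for all means below). The fitted difference on the log2 scale was -0.25 ± 0.17 (SE; edgeR adjusted p = 0.406), a fold of 0.844 with a 95% interval from 0.656 to 1.085. Without MM5, MM8 and MM9 it was -0.04 ± 0.11.

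Asic2 encodes a subunit that joins the others and modifies their proton sensitivity. It had 77.9, 93.9 and 115 CPM in MM libraries, against 100, 109 and 119 CPM in SHAM libraries. The groups overlapped, but 8 of 9 MM libraries lay below the SHAM median and 6 of 9 below the lowest SHAM library. Asic2 averaged 95.5 ± 12.1 CPM in MM and 109 ± 6.65 CPM in SHAM, and its log2 fold change was -0.20 ± 0.07 (SE; edgeR adjusted p = 0.102). The 95% interval of the fold ran from 0.793 to 0.961 before adjustment over genes. Asic2 passed only with MM3 left out, the highest of the MM libraries, where the log2 fold change was -0.23 and the adjusted p 0.0427. Without MM5, MM8 and MM9 the log2 fold change was -0.11 with an adjusted p of 0.561. Over 27 alternative fits or sets of libraries the adjusted p was lowest at that 0.0427 and no other passed. With libraries scaled on the pan-neuronal markers, a change that raised the median log2 fold change of all genes to 0.147, that of Asic2 was -0.07.

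Asic3, the subunit best known from afferents of muscle and bone, had 44.2, 98.7 and 116 CPM in MM libraries, against 71.6, 103.0 and 125 CPM in SHAM libraries. MM5 was the lowest library of all, MM9 stood just under the lowest SHAM library (both 71.6 CPM), and the remaining MM libraries lay between 86.2 and 116 CPM, inside the SHAM range. On the log2 scale the difference was -0.09 ± 0.15 (SE; edgeR adjusted p = 0.739; 95% interval of the fold 0.750 to 1.171) and 0.04 without MM5, MM8 and MM9. Of the other members of the family, Asic4 averaged 0.194 CPM in MM and 0.224 CPM in SHAM, and Asic5 had 0 reads in all 18 libraries; neither passed the filter.

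Asic1 and Asic2 are each known to give rise to channel variants that differ in their first part and share the rest. The transcripts behind these counts showed such pairs. Shown are 60 bases around the join between the last exon particular to each transcript (lower case) and the first exon that both transcripts of the gene share (capitals), from GENCODE M21 transcripts on GRCm38. They are printed since the shares given next rest on the part that differs. Asic1-201 joins its exon 3 at chr15:99672868-99673063 (+ strand), and Asic1-205 its exon 1 at chr15:99692233-99693027, to the same exon at chr15:99694694-99694844. Asic2-201 joins its exon 1 at chr11:81151758-81153321 (- strand), and Asic2-202 its exon 1 at chr11:81967630-81968457, to the same exon at chr11:80971464-80971614. All of these bases are coding.
Asic1-201: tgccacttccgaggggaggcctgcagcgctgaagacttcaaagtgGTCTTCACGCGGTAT
Asic1-205: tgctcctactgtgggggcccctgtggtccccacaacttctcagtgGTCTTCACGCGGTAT
Asic2-201: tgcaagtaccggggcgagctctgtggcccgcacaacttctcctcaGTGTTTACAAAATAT
Asic2-202: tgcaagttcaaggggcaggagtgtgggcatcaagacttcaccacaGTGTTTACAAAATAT

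The share of a transcript is its part of the TPM of its gene (Salmon's abundance, scaled by transcript length). Asic1-205 held 46.2 ± 1.45% of Asic1 in MM and 46.1 ± 1.21% in SHAM. Asic1-201 held 12.8, 15.8 and 19.5% in MM libraries (lowest, median, highest), against 10.7, 13.9 and 15.8% in SHAM libraries. It was above the SHAM median in 8 of 9 MM libraries, though the groups overlapped. The difference was 2.10 percentage points (2-sided exact permutation test, p = 0.0143, adjusted over 19 transcripts 0.271). Without MM9, whose share was the lowest of the MM group, it was 2.50 points with an adjusted p of 0.0266. That was the only 1 of 21 alternatives in which Asic1-201 passed. With single libraries left out its difference ran from 1.65 to 2.50 points. Asic1-203, annotated as a processed transcript with no coding frame, held 36.9 ± 2.62% in MM and 39.1 ± 2.11% in SHAM.

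Asic2-201 held 72.3 ± 3.45% of Asic2 in MM and 70.4 ± 3.21% in SHAM, and Asic2-202 held the rest (exact permutation test, adjusted p = 0.547). The 2 transcripts share 9 of 10 exons exactly, so that only reads that touch the first exon tell them apart. Asic3 was also split. Asic3-201 held 48.2 ± 1.51% in MM and 49.9 ± 2.39% in SHAM, and Asic3-202 held 40.4 ± 3.55% in MM and 38.0 ± 3.19% in SHAM. Asic3-202 holds an exon that Asic3-201 lacks, its exon 6 at chr5:24416537-24416684 (GRCm38, + strand). The exon has 148 bases, which is not a whole number of codons. Whether both transcripts encode a working channel was not tested. It is shown in capitals with 15 bases on either side, and Asic3-201 joins those flanks directly.
Asic3-202: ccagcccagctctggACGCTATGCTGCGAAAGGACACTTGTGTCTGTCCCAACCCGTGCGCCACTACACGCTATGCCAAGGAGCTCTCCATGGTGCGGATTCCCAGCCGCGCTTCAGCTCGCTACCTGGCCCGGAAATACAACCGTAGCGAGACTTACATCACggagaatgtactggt
Asic3-201: ccagcccagctctggggagaatgtactggt

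**Figure D2:**
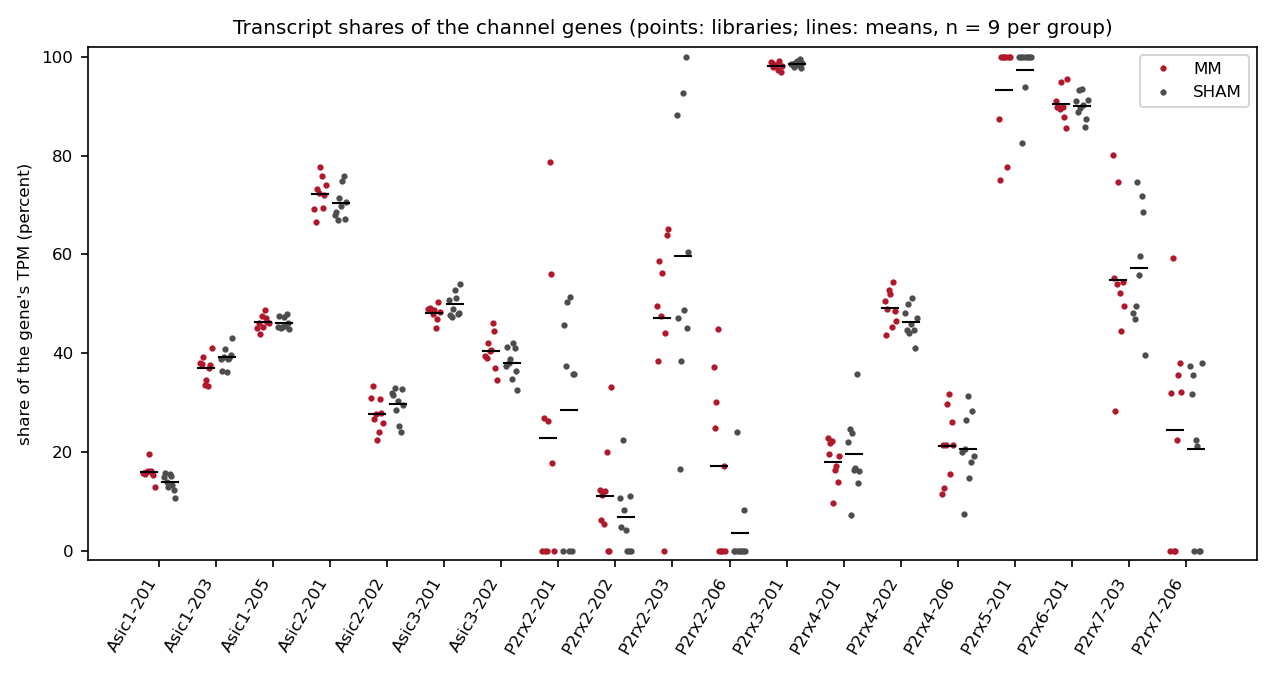
Share of each transcript in the TPM of its gene, in percent, for the 19 transcripts with a mean share of 10% or more in either group. Points are libraries and lines are means (n = 9 per group). The shares of Asic1, Asic2, Asic3 and P2rx3 transcripts lie close together in MM and SHAM libraries, while those of P2rx2 scatter over most of the axis.

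Among the P2X receptors, P2rx3, the subunit of the nociceptor ATP receptor, was the most abundant. It had 149, 166 and 191 CPM in MM libraries, against 154, 184 and 207 CPM in SHAM libraries. Of the 9 MM libraries 8 lay below the SHAM median, and 2, MM7 and MM9, lay below the lowest SHAM library; MM5 and MM8 stood in the middle of their group. P2rx3 averaged 166 ± 12.4 CPM in MM and 180 ± 18.4 CPM in SHAM. MM over SHAM gave a log2 fold change of -0.12 ± 0.06 (SE; edgeR adjusted p = 0.243; 95% interval of the fold 0.842 to 1.004) and -0.11 ± 0.07 without MM5, MM8 and MM9. The main transcript, P2rx3-201, held 98.2 ± 0.703% of the gene in MM and 98.6 ± 0.547% in SHAM.

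Markers of non-peptidergic nociceptors, the class that carries most P2X3, were examined beside it. Of the 9 markers, 2 fell by edgeR, Mrgprd and Scn11a, against 0.241% of all genes tested, and the other 7 did not pass. DESeq2 called 4 of 9 lower, against 247 of the 19749 genes it tested. The median log2 fold change over the list was -0.20. Mrgprd, a receptor of these neurons, had 113 ± 14 CPM in MM and 136 ± 8.84 CPM in SHAM (edgeR adjusted p = 0.0427). Scn11a, the sodium channel Nav1.9, had 464 ± 59.6 CPM in MM and 563 ± 42.8 CPM in SHAM (adjusted p = 0.0470). All 9 markers were measured in both groups. Their summed level ran from 1679 to 2376 CPM in MM and from 2208 to 2680 CPM in SHAM, and without MM5, MM8 and MM9 none passed, with a list median of -0.16. Of 8 markers of peptidergic nociceptors, 0 passed by edgeR, with a list median of -0.001. The part of either class in the level of P2rx3 was not tested.

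P2rx2, the partner of P2X3 in nociceptors, was the least abundant of the 9, with 67 to 139 estimated reads per library. It had 3.38, 4.53 and 6.20 CPM in MM libraries, against 4.10, 5.89 and 7.18 CPM in SHAM libraries. The ranges overlapped over most of their length, with 8 of 9 MM libraries below the SHAM median and 2 of 9, MM7 and MM9, below the lowest SHAM library. The log2 fold change was -0.26 ± 0.12 (SE; edgeR adjusted p = 0.225; 95% interval of the fold 0.700 to 1.001), and -0.20 ± 0.13 without MM5, MM8 and MM9. The shares of its transcripts were poorly resolved at this depth: P2rx2-203 ran from 0 to 65.2% in MM libraries and from 16.5 to 100% in SHAM libraries.

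P2rx4, the receptor known from macrophages and microglia, had 30.8, 35.4 and 42.0 CPM in MM libraries, against 30.6, 32.1 and 36.8 CPM in SHAM libraries. The 3 highest values of all were those of MM5 (42.0 CPM), MM9 (41.8 CPM) and MM8 (39.3 CPM), above every SHAM library, and the other 6 MM libraries lay within the SHAM range. On average P2rx4 had 35.9 ± 4.24 CPM in MM and 33.4 ± 2.61 CPM in SHAM. The fitted difference on the log2 scale was 0.10 ± 0.07 (SE; edgeR adjusted p = 0.371; 95% interval of the fold 0.974 to 1.183), and -0.01 ± 0.06 without those 3 libraries. MM5, MM9 and MM8 also had the highest macrophage marker level (mean log2 CPM over 12 markers), at 4.87, 4.31 and 3.82, while the highest level was 2.89 among other MM libraries and 3.0 in SHAM. The level of B, plasma and myeloma cell markers was highest in the same libraries, with MM9 at 7.25, MM8 at 6.53 and MM5 at 6.45, while no other MM library exceeded 4.61 and no SHAM library 1.91. Of the macrophage markers 6 of 12 rose by edgeR, among them Ctss and Cd68, against 2.75% of all genes tested. Without MM5, MM8 and MM9, where 53 genes rose in all, 1 of the 12 markers did. Their summed level ran from 90.9 to 575.2 CPM in MM and from 57.9 to 141.5 CPM in SHAM. The part of either cell type in the level of P2rx4 was not tested.

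The transcripts of P2rx4 differ in an exon of 81 bases, exon 6 of P2rx4-201 at chr5:122724594-122724674 (GRCm38, + strand), which P2rx4-206 also holds and P2rx4-202 skips. It is shown in capitals with 15 bases on either side, beside the join without it.
P2rx4-201: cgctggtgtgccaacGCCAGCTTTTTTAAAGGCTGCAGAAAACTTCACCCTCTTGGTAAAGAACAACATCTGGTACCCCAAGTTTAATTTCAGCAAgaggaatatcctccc
P2rx4-202: cgctggtgtgccaacgaggaatatcctccc
P2rx4-202, without the exon, held 49.2 ± 3.58% of P2rx4 in MM and 46.3 ± 3.12% in SHAM. P2rx4-201 held 18 ± 4.3% in MM and 19.6 ± 8.13% in SHAM, and P2rx4-206 held 21.2 ± 7.12% in MM and 20.6 ± 7.32% in SHAM. No share passed (exact permutation test, adjusted p from 0.386 to 0.866).

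P2rx7, whose receptor opens at high ATP and drives interleukin-1 release in macrophages, varied most between libraries of a group, with a coefficient of variation of 37.6% in MM and 29.7% in SHAM. It had 11.7, 21.8 and 39.8 CPM in MM libraries, against 11.9, 19.6 and 34.6 CPM in SHAM libraries. MM5 held the highest value and MM3 the lowest, and the groups overlapped almost throughout. On the log2 scale the difference was 0.10 ± 0.21 (SE; edgeR adjusted p = 0.812; 95% interval of the fold 0.785 to 1.455) and -0.04 ± 0.23 without MM5, MM8 and MM9. Without MM5 alone it was -0.05. Its main transcript, P2rx7-203, held 54.8 ± 15.4% of the gene in MM and 57.2 ± 12.3% in SHAM.

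P2rx5 and P2rx6 encode subunits known in rodents mainly as partners in mixed P2X receptors. P2rx5 had 4.0, 9.80 and 11.4 CPM in MM libraries, against 7.09, 9.09 and 11.4 CPM in SHAM libraries. MM5 (4.0 CPM) and MM9 (5.15 CPM) stood below every SHAM library, while 7 of 9 MM libraries exceeded the SHAM median. MM over SHAM gave a log2 fold change of -0.05 ± 0.17 (SE; edgeR adjusted p = 0.885; 95% interval of the fold 0.755 to 1.239) over all libraries and 0.15 ± 0.10 without MM5, MM8 and MM9. Leaving out MM5 alone gave 0.05 and MM9 alone 0.03, so the sign rested on either library.

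P2rx6 had 8.80, 21.7 and 26.9 CPM in MM libraries, against 16.4, 23.7 and 27.5 CPM in SHAM libraries. MM5 (8.80 CPM) and MM9 (14.6 CPM) were again the 2 libraries below the SHAM range. The log2 fold change was -0.13 ± 0.16 (SE; edgeR adjusted p = 0.660; 95% interval of the fold 0.721 to 1.161), and 0.06 ± 0.10 without MM5, MM8 and MM9. The single main transcripts, P2rx5-201 and P2rx6-201, held 93.4 ± 10.5% and 90.4 ± 3.16% of their genes in MM, against 97.4 ± 5.89% and 90.1 ± 2.55% in SHAM. P2rx1, the remaining P2X gene on the list of relatives, averaged 0.219 CPM in MM and 0.110 CPM in SHAM and did not pass the filter.

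**Figure D3:**
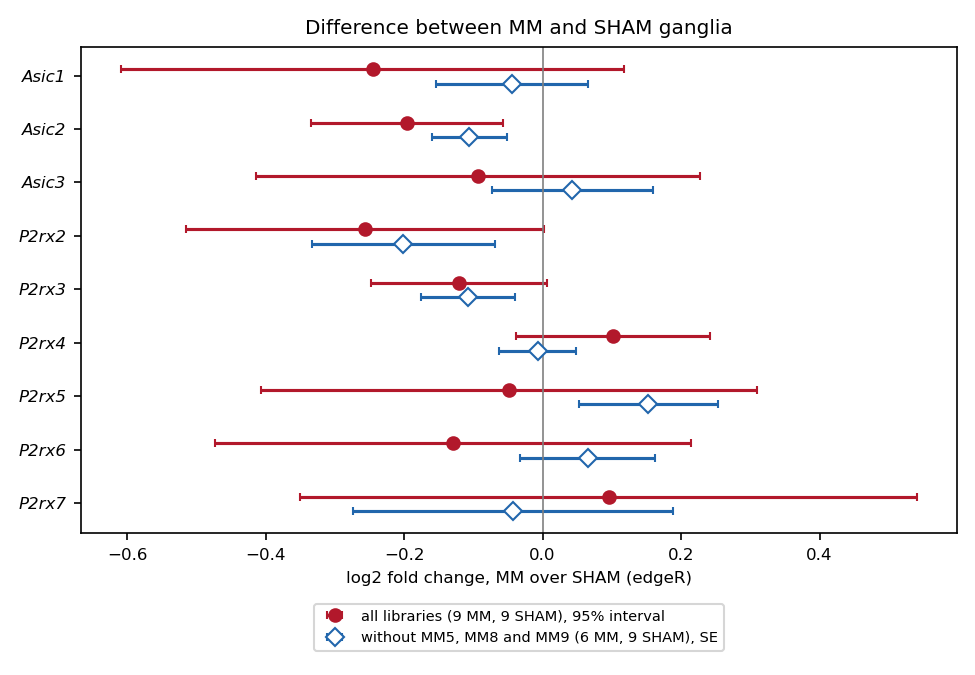
Log2 fold change of MM over SHAM for the 9 genes. Filled circles are the fit over all 18 libraries with the 95% interval, and open diamonds the fit without MM5, MM8 and MM9 with 1 SE on either side. Asic2 alone has an interval over all libraries that leaves out 0 before adjustment over genes; the point for Asic2 moves to -0.11 without those libraries.

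MM5 and MM9 thus held the lowest MM values for Asic1, Asic3, P2rx5 and P2rx6, all lower than in the other MM libraries. Both libraries also had the lowest pan-neuronal marker level (mean log2 CPM over 13 markers), 8.66 in MM5 and 9.11 in MM9, against 9.40 to 9.64 in the other MM libraries and 9.24 to 9.59 in SHAM libraries. Their A-fibre neuron marker level (mean log2 CPM over 9 markers) was the lowest too, at 5.34 in MM5 and 5.73 in MM9, against 6.03 to 6.39 in the other MM libraries and 5.90 to 6.73 in SHAM libraries. Pvalb on this list is also expressed by muscle. Without Pvalb the level was 5.37 in MM5 and 5.71 in MM9. It was 6.02 to 6.38 in the other MM libraries and 5.93 to 6.40 in SHAM libraries. None of the 13 pan-neuronal markers passed the test between MM and SHAM by edgeR or DESeq2. None of the 9 A-fibre markers passed the test between MM and SHAM, with a median log2 fold change of -0.22 over all libraries and of -0.07 without MM5, MM8 and MM9. Their summed level ran from 1336 to 3850 CPM in MM and from 2472 to 4765 CPM in SHAM, and all 9 were measured. Within these sums Pvalb reached 224 CPM in MM and 1310 CPM in SHAM. The part of either marker level in the low values of these 4 genes was not tested.

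Set against the neuronal markers of the same library, no gene differed past the threshold either. The log2 ratio of a gene to the mean of the pan-neuronal markers differed between MM and SHAM by amounts from -0.17 for Asic1 to 0.22 for P2rx4. No ratio passed a 2-sided exact permutation test (adjusted p from 0.794 to 0.952 over the 9). For Asic2 the ratio was -2.78 ± 0.20 over MM libraries and -2.71 ± 0.10 over SHAM libraries, and for P2rx3 it was -1.98 ± 0.29 over MM libraries and -1.99 ± 0.20 over SHAM libraries. The difference in ratio changed sign without MM5, MM8 and MM9 for P2rx3 (0.008 to -0.126) and for P2rx4 (0.223 to -0.024).

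Levels of different genes were compared in TPM, summed over all transcripts of a gene, coding or not. P2rx3 stood first in both groups, with 178 ± 21.2 TPM in MM and 199.9 ± 12.97 TPM in SHAM, and its range did not overlap that of Asic3. Asic3 followed with 104 ± 27.6 TPM in MM and 113 ± 24.1 TPM in SHAM, above Asic1 in 9 of 9 libraries of each group. Asic1 (56.7 ± 18.2 TPM in MM, 70.1 ± 14.4 TPM in SHAM) and Asic2 (52.6 ± 8.95 TPM in MM, 62.6 ± 4.55 TPM in SHAM) overlapped, and Asic1 was the higher in 7 of 9 MM and 5 of 9 SHAM libraries. P2rx4 came next with 39.5 ± 3.55 TPM in MM and 38.8 ± 3.87 TPM in SHAM; it was clear of Asic2 in SHAM, but the ranges overlapped in MM. In MM5 and MM9 Asic1, with 22.1 and 29.6 TPM, lay below P2rx4, with 45.2 and 41.6 TPM. Of the Asic1 level, 20.9 ± 6.76 TPM in MM and 27.4 ± 5.77 TPM in SHAM came from Asic1-203, which has no coding frame. The coding Asic1-205 had 26.3 ± 8.56 TPM in MM and 32.3 ± 6.76 TPM in SHAM, and Asic1-201 8.97 ± 2.90 and 9.66 ± 2.40 TPM. The place of Asic1 in this order thus counts a non-coding transcript.

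P2rx6 was lower than P2rx4 in every library, and their ranges did not overlap. P2rx6 had 17.3 ± 5.62 TPM in MM and 19.5 ± 3.23 TPM in SHAM, and P2rx7 had 13.03 ± 4.18 TPM in MM and 12.7 ± 4.62 TPM in SHAM. P2rx5 had 7.28 ± 2.57 TPM in MM and 7.45 ± 1.38 TPM in SHAM, and P2rx2 stood last with 4.70 ± 1.04 TPM in MM and 5.54 ± 0.980 TPM in SHAM. The ranges of neighbours among these last 4 genes overlapped in both groups. Of the P2rx7 level, 3.34 ± 2.92 TPM in MM and 3.13 ± 2.55 TPM in SHAM came from P2rx7-206. It is a processed transcript of 433 bases with a median of 7.73 reads. The coding P2rx7-203 had 7.07 ± 2.65 TPM in MM and 6.90 ± 2.17 TPM in SHAM, close to P2rx5-201 with 6.66 ± 2.10 and 7.22 ± 1.19 TPM. The order of the 9 means, over all transcripts, was the same in MM and SHAM.

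**Figure D4:**
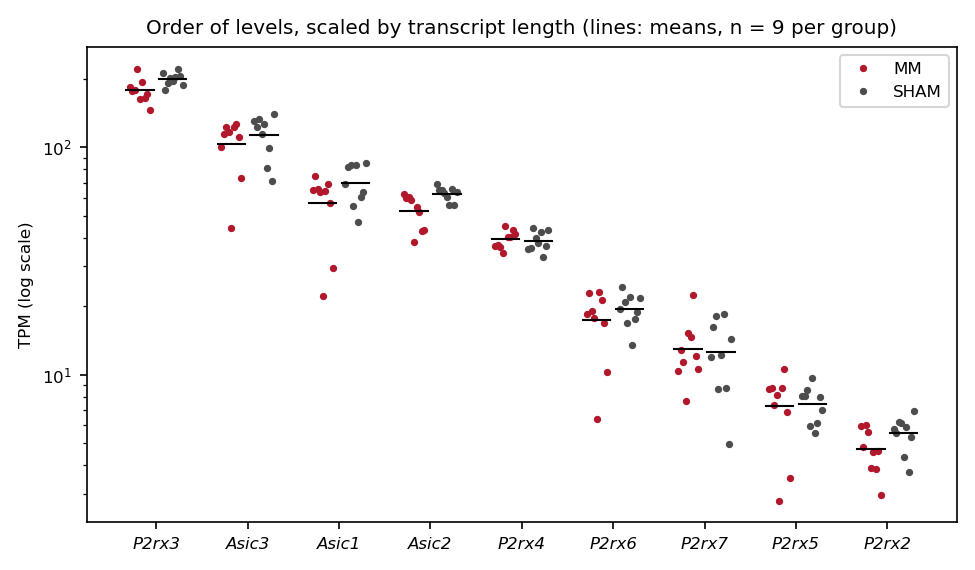
Level of the 9 genes in TPM on a log axis, in the order of their SHAM means, with 1 point per library and a line at each mean (n = 9 per group). The points of P2rx3 lie above those of all other genes, and those of P2rx4 above those of P2rx6; Asic1 reaches down to 22.1 TPM in MM5, inside the range of P2rx6.

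How the genes varied together was examined within SHAM libraries, since MM libraries include those that stand apart. Of 36 pairs, only Asic1 and P2rx6 passed (r = 0.95, exact permutation p = 0.000344, adjusted 0.0124; rho = 0.93, p = 0.00075, adjusted 0.027; n = 9). Without the 2 libraries farthest from the median of Asic1, r was 0.84. In the 6 MM libraries other than MM5, MM8 and MM9, r was 0.56 and rho 0.60 (exact permutation p = 0.261 and 0.242, adjusted 0.758 and 0.853). Whether the correlation differs between the groups was not tested.

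For this pair the 250 bases before the RefSeq transcription start (GRCm38.p6) are shown, for Asic1 at chr15:99691974-99692223 and for P2rx6 at chr16:17561635-17561884, both on the + strand. Motifs known from core promoters were searched on both strands, namely the GC box, spelled GGGCGG, the CCAAT box, spelled as its name, and the TATA box, spelled TATAAA. Matches are in capitals. The Asic1 window, which ends just upstream of the first exon of Asic1-205, held none of them. The P2rx6 window held 1 match of each, and the CCAAT and TATA matches share a base. The TATA match reads on the - strand, opposite to the gene, and lies nearer the upstream end of the window than the start. Whether any match acts in the promoter was not tested. Among 32851 promoters, 32.7% held the GC box, 33.8% the CCAAT box and 12.4% the TATA box. The G and C bases made up 59.2% of the Asic1 window and 50.8% of the P2rx6 window, against a median of 52.4%.
Asic1: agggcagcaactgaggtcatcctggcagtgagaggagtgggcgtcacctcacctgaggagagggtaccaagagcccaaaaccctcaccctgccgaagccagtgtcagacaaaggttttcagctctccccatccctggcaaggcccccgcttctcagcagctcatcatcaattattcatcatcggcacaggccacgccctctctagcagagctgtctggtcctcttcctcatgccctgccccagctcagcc
P2rx6: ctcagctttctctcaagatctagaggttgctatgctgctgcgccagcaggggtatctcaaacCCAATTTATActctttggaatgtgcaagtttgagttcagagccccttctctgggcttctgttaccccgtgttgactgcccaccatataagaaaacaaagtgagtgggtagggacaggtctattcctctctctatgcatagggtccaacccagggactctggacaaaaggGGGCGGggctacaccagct

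The genes were also set against the marker levels of 7 cell types, a comparison chosen after some of these values had been seen. Of 63 pairs over the 9 SHAM libraries none passed by r. P2rx3 and the non-peptidergic nociceptor markers came nearest (r = 0.91, exact permutation p = 0.00103, adjusted 0.0648; rho = 0.92, adjusted 0.0413), with r = 0.97 without the 2 libraries farthest from the median of P2rx3. In the 6 MM libraries other than MM5, MM8 and MM9, r was 0.36 (exact permutation p = 0.512, adjusted 0.834). With the peptidergic nociceptor markers P2rx3 had r = 0.68 in SHAM libraries (exact permutation p = 0.051, adjusted 0.229). In the 6 MM libraries that r was 0.91 (exact permutation p = 0.00694, adjusted 0.0875). P2rx7 and the Schwann cell markers had r = 0.87 (exact permutation p = 0.00588, adjusted 0.0957; rho = 0.92, adjusted 0.0413) in SHAM libraries, but r = 0.44 without the 2 libraries farthest from the median. In the 6 MM libraries it was 0.91 (exact permutation p = 0.00417, adjusted 0.0875). P2rx5 and the Schwann cell markers had r = -0.83 in SHAM libraries (exact permutation p = 0.00278, adjusted 0.0875). Without the 2 libraries farthest from the median it was -0.71. In the 6 MM libraries the sign was reversed, with r = 0.50 (exact permutation p = 0.312, adjusted 0.787).

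With macrophage markers P2rx7 had r = 0.72 and rho = 0.90 over the 9 SHAM libraries (exact permutation p = 0.0304 and 0.00203, adjusted 0.192 and 0.0426). In the 6 MM libraries other than MM5, MM8 and MM9, r was 0.51 (exact permutation p = 0.278, adjusted 0.787). For satellite glia markers and P2rx7, r was 0.00 to 2 decimals (adjusted 0.992). Asic1 and A-fibre neuron markers, here 8 without Pvalb, which muscle also expresses, had r = 0.83 (exact permutation p = 0.00607, adjusted 0.0957), and 0.50 without the 2 libraries farthest from the median. For this pair r was 0.27 in the 6 MM libraries (exact permutation p = 0.637, adjusted 0.877). Schwann cell markers summed to between 3602 and 17060 CPM in MM and to between 2454 and 12720 CPM in SHAM, and none of the 8 passed between the groups by edgeR. DESeq2, which called 6.98% of the genes it tested, called 1 of the 8, Egr2, a transcription factor of myelinating Schwann cells. Egr2 had 31.3 ± 13.5 CPM in MM and 17.7 ± 5.90 CPM in SHAM, with 6 of 9 MM libraries above every SHAM library. Its DESeq2 log2 fold change was 0.81 (DESeq2 adjusted p = 0.0438, edgeR adjusted p = 0.0999). The part of these cells in the levels of P2rx7 was not tested.

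**Figure D5:**
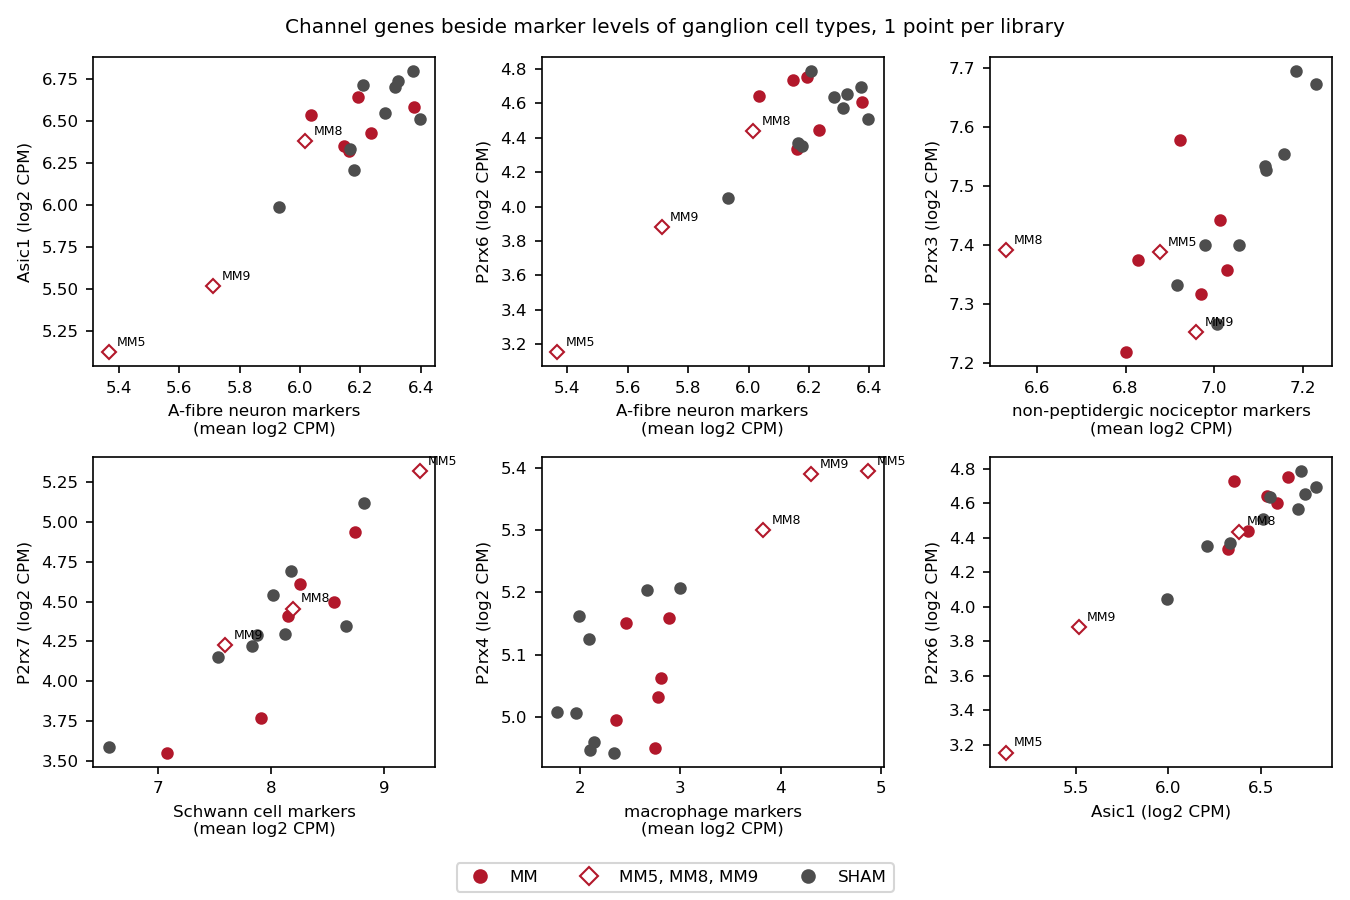
Level of channel genes (log2 CPM) against the mean log2 CPM of a marker list (A-fibre markers without Pvalb), and P2rx6 against Asic1, with 1 point per library. MM5 and MM9 lie at the low end for Asic1 and P2rx6 and at the high end of macrophage markers for P2rx4; P2rx7 is highest in MM5, where the Schwann cell markers are highest too.

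The genes most like P2rx3 and P2rx7 were sought among 13702 genes by Pearson's r of log2 CPM over the 18 libraries, with each group centred on its mean. For P2rx3 these were Tubb2b, a tubulin of neurons, with r = 0.816, Stac with r = 0.813 and Ly86 with r = 0.793. Over the 15 libraries without MM5, MM8 and MM9, the values were 0.851, 0.905 and 0.836 in the same order, which placed Tubb2b at rank 19, Stac at rank 2 and Ly86 at rank 29. For P2rx7 they were Tjp1, a tight junction protein, with r = 0.954, the polarity gene Pard6g with r = 0.952 and Phldb1 with r = 0.950, and 0.949, 0.957 and 0.939 without those libraries, where Tjp1 was at rank 6, Pard6g at rank 2 and Phldb1 at rank 11. For P2rx3 and for P2rx7, 1 of the 3 genes was thus still among the first 3. They are descriptions, and the libraries differ in cell make-up as given above.

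The genes that make, release or break down the ligands, and other receptors for them, were read from lists chosen with earlier results of these data known. Of 10 ectoenzymes of nucleotide breakdown tested, 1 rose and 0 fell, against 2.75% higher and 0.241% lower of all genes tested. Alpl, the alkaline phosphatase that also removes phosphates from ATP, had 34.2 ± 33.4 CPM in MM and 8.58 ± 2.37 CPM in SHAM, a log2 fold change of 1.99 ± 0.43 (SE, edgeR adjusted p = 0.0242), higher than the SHAM median in 9 of 9 MM libraries. Without MM5, MM8 and MM9 it was 0.85 with an adjusted p of 0.10. The call was also lost without MM5, MM8, SHAM1, SHAM2, SHAM3, SHAM7 or SHAM8 singly, with an adjusted p of at most 0.0577, and in 11 of 27 alternatives in all. Acp3, the acid phosphatase of non-peptidergic neurons that makes adenosine from AMP, was the most abundant of the list, with 463 ± 46.3 CPM in MM and 509 ± 33.0 CPM in SHAM (adjusted p = 0.195).

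Of 5 inflammasome and interleukin-1 genes downstream of P2X7 that were tested, 1 rose and 0 fell. Of all genes tested, 2.75% were higher and 0.241% lower. Casp1, the protease that activates interleukin-1, had 10.3 ± 6.52 CPM in MM and 4.80 ± 0.593 CPM in SHAM (log2 fold change 1.1 ± 0.27 SE, edgeR adjusted p = 0.0348). Of 9 MM libraries 8 lay above every SHAM library. Without MM5, MM8 and MM9 the log2 fold change was 0.47 with an adjusted p of 0.127. The call was lost without MM5, MM8 or MM9 singly (adjusted p = 0.0792, 0.0766 and 0.0523), and without each SHAM library other than SHAM6 (adjusted p from 0.0571 to 0.0714), and in 17 of 27 alternatives in all. The calls of both Alpl and Casp1 were thus lost without MM5, MM8 and MM9. Those libraries had the highest levels of macrophage and of B, plasma and myeloma cell markers given above. The part of those cells in Alpl and Casp1 was not tested.

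No gene of the remaining pathway lists passed by edgeR. DESeq2, which called 5.73% of the genes it tested higher in MM, called 3 pathway genes beside Alpl and Casp1, all higher in MM and named here after their values were seen. Slc17a9, the transporter that loads ATP into vesicles, had 1.43 ± 1.45 CPM in MM and 0.221 ± 0.101 CPM in SHAM, with 7 of 9 MM libraries above every SHAM library (DESeq2 log2 fold change 2.68 ± 0.59 SE, adjusted p = 0.000468); it did not pass the filter for edgeR. Il1b, the cytokine interleukin-1 beta, had 1.53 ± 2.03 CPM in MM and 0.197 ± 0.162 CPM in SHAM (DESeq2 log2 fold change 2.94 ± 0.74 SE, adjusted p = 0.00313) and did not pass that filter either. Ada, an adenosine deaminase, had 4.19 ± 2.57 CPM in MM and 2.32 ± 0.329 CPM in SHAM (DESeq2 log2 fold change 0.85, adjusted p = 0.0269, edgeR adjusted p = 0.0745). By edgeR without MM5, MM8 and MM9 the log2 fold change of Ada was 0.28 (adjusted p = 0.544). Slc17a9 and Il1b did not pass the filter of that fit. They held 305 and 321 estimated reads over all 18 libraries, so their values rest on few reads.

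Among P2Y receptors (0 of 5 tested), P2ry6, a receptor for UDP, had 3.64 ± 2.51 CPM in MM and 1.85 ± 0.675 CPM in SHAM (edgeR adjusted p = 0.113), and P2ry14 had 4.13 ± 1.75 CPM in MM and 3.12 ± 0.888 CPM in SHAM (adjusted p = 0.271). Among adenosine receptors (0 of 3), Adora1, the inhibitory receptor of sensory neurons, had 125 ± 16.4 CPM in MM and 145 ± 11.6 CPM in SHAM (adjusted p = 0.102), and Adora2a had 5.11 ± 1.04 CPM in MM and 4.74 ± 0.747 CPM in SHAM (adjusted p = 0.627). Genes of ATP release (0 of 5) were led by Panx2, with 84.0 ± 18.6 CPM in MM and 95.5 ± 11.7 CPM in SHAM (adjusted p = 0.380), and Lrrc8a, with 69.7 ± 7.85 CPM in MM and 72.7 ± 3.03 CPM in SHAM (adjusted p = 0.562).

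Acid sensors outside the ASICs did not pass either. Of 3 proton-sensing G-protein-coupled receptors tested none passed, with Gpr65 reaching 1.41 ± 1.20 CPM in MM and 0.853 ± 0.269 CPM in SHAM (edgeR adjusted p = 0.285) and Gpr4 2.86 ± 1.53 CPM in MM and 2.60 ± 1.97 CPM in SHAM (adjusted p = 0.851). Of 7 other acid-sensitive channels none passed, and the lowest p belonged to Kcnk18, a potassium channel of sensory neurons, with 13.9 ± 2.93 CPM in MM and 16.4 ± 1.43 CPM in SHAM (adjusted p = 0.202). Kcnk1 followed with 78.0 ± 15.4 CPM in MM and 86.5 ± 7.09 CPM in SHAM (adjusted p = 0.376). Of 8 ASIC partners and regulators none passed, with Akap5 measured as 1.03 ± 0.282 CPM in MM and 1.29 ± 0.295 CPM in SHAM (adjusted p = 0.290) and Dlg4, the scaffold PSD-95, as 124 ± 19.4 CPM in MM and 137 ± 9.31 CPM in SHAM (adjusted p = 0.306).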

How the data were processed

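RNA from whole lumbar DRG was sequenced by a service provider on DNBSEQ instruments, per the labels' protocols. The authors quantified transcripts with Salmon 1.5.2 and used DESeq2 and the GRCm39 build, per the submitters' processing notes; the index and options are not given in the sources used here. The deposited files hold, per transcript, an estimated count that need not be whole and a TPM, which Salmon scales by effective transcript length. A deposited table across samples gives each gene a signal normalized by the authors, used here only to compare directions: its log2 ratio of means had the sign of the fit for each member but P2rx5 (0.003).

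Estimated counts were summed per gene through GENCODE M21, which annotates the older GRCm38, by transcript number, and rounded. Of 137562 transcripts, 3620 had no gene there (0.85% to 1.339% of reads per library). Printed transcript sequences come from GENCODE M21 and promoters from RefSeq, both on GRCm38, and coordinates are in that build only. Names were matched by Ensembl identifier for all 9 members.

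Genes were filtered with filterByExpr, scaled by TMM and tested in R 4.3.3 with edgeR 4.0.16 (robust quasi-likelihood fit, group only), with an adjusted p under 0.05 as the threshold. The common biological coefficient of variation was 0.258. DESeq2 1.42.0 and limma-voom (limma 3.58.1) were alternatives. Log2 CPM used a prior count of 2. Exact permutation tests used scipy 1.17.1 over 48620 assignments of 9 and 9 libraries, which can reach a p of 4.11e-05. Tests of ratios and shares were adjusted over the 9 members and over the 19 transcripts. The labels do not say that libraries are separate animals beyond the design text. The p-values between groups set a difference against the spread between these libraries.

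The members and lists were chosen with earlier results of these data known. The text names the members, from each pathway list up to 3 genes per direction past the threshold or else the 2 with the lowest p, up to 2 markers per cell type, and the 3 genes most like P2rx3 and P2rx7; Acp3, Asic4, Asic5, P2rx1, Slc17a9, Il1b and Ada were added after their values were seen. Sharing of a replicate number did not pair libraries. The alternatives were another scaling, tool, filter, length offset and set of libraries.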

Additional observations from a re-analysis of the deposited data

Results flagged for a closer look

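Of 56 groups of 9 libraries examined for a library far from the others (Dixon's ratio over 0.493), 4 held one. All 4 concern transcript shares. For independent, normally distributed values chance gives about 1 in 20. That rate need not hold here, since many shares are exactly 0 or 100% and shares of a gene depend on each other. In the MM group, MM6 had 0% of P2rx2 in P2rx2-203, while the other MM libraries had between 38.3 and 65.2%. In the SHAM group, SHAM3 had 22.3% of P2rx2 in P2rx2-202 (others 0 to 11.0%), 24.0% in P2rx2-206 (others 0 to 8.24%) and 82.6% of P2rx5 in P2rx5-201 (others 93.9 to 100%). P2rx2 had 67 to 139 estimated reads per library and P2rx5 had 86 to 241, so these shares rest on few reads.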

How the results depend on the processing

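Of 243 recomputed log2 fold changes of the 9 genes, 229 kept their sign and their side of the threshold, 13 changed sign and 1 passed, that of Asic2 without MM3 (-0.23; range -0.23 to -0.16 with single libraries left out). No changed sign passed the test, and the causes were not tested. Without MM5, MM8 and MM9 the log2 fold change was 0.043 for Asic3, -0.007 for P2rx4, 0.153 for P2rx5, 0.065 for P2rx6 and -0.043 for P2rx7, and without SHAM7 and SHAM8 it was -0.011 for P2rx7. Scaled on pan-neuronal markers it was 0.001 for Asic3, 0.026 for P2rx3 and 0.038 for P2rx5, and with the length offset 0.007 for P2rx5. With single libraries left out, P2rx5 ran from -0.103 to 0.048 and P2rx7 from -0.048 to 0.214.

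Counts over all genes moved more. Against 433 higher and 38 lower, DESeq2 gave 1132 and 247, limma-voom 0 and 0, scaling on pan-neuronal markers 212 and 7, leaving out MM5, MM8 and MM9 gave 53 and 7, and leaving out SHAM7 and SHAM8 gave 29 and 6. No filter gave 20 lower and the length offset 67 lower. Leaving out single libraries gave 75 to 891 higher and 9 to 139 lower. Of the 9 members, 0 to 1 were then called lower.

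Same-numbered libraries correlated at r from -0.32 to 0.263, over 0.1 in 2 of 9, and 2 of 9 libraries correlated best with their own number, so the replicate block is only a check; with it 7 genes were higher and 1 lower, and no member passed. 

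Without MM5, MM8 and MM9 the ratio to pan-neuronal markers differed by -0.126 for P2rx3, -0.024 for P2rx4, 0.051 for P2rx6 and -0.083 for P2rx7. With single libraries left out it ran from -0.049 to 0.048 for Asic3, -0.081 to 0.044 for P2rx3, -0.019 to 0.084 for P2rx5, -0.098 to 0.004 for P2rx6 and -0.012 to 0.331 for P2rx7. Of 399 recomputed differences in share, 1 passed, that of Asic1-201 without MM9. Differences in share, in percentage points, were 0.312 for P2rx4-201, -1.647 for P2rx4-206 and -0.466 for P2rx6-201 without MM5, MM8 and MM9. For Asic1-205 the difference was -0.240 as a share of reads. With single libraries left out the differences in share ran from -0.125 to 0.484 for Asic1-205, -3.148 to 0.421 for P2rx4-201, -1.077 to 1.922 for P2rx4-206, -0.332 to 0.933 for P2rx6-201, -5.600 to 0.892 for P2rx7-203 and -0.646 to 6.751 for P2rx7-206. Few reads lay behind some shares: the median per library was 7.73 for P2rx7-206, 57.2 for P2rx2-203, 78.6 for P2rx4-206 and 190 for P2rx5-201.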
